A study of Rattus norvegicus with 12 samples.

Results

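The 5 genes described here encode the core of the machinery that releases synaptic vesicles from the presynaptic terminal. They are Vamp2 (ENSRNOG00000006989), Snap25 (ENSRNOG00000006037), Stx1a (ENSRNOG00000029165), Syt1 (ENSRNOG00000006426) and Syn1 (ENSRNOG00000010365). They were chosen by gene identifier and are 5 of the 25424 genes read from the table. All 5 passed the filter on low values, which 12150 genes passed in all.

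A synaptic vesicle fuses with the plasma membrane when the SNARE protein on the vesicle, encoded by Vamp2, zips into a bundle with the SNAREs on the plasma membrane, encoded by Snap25 and Stx1a. Syt1 encodes synaptotagmin-1, the vesicle protein that senses calcium and couples its entry to fast fusion. Syn1 encodes synapsin I, a phosphoprotein that coats vesicles and holds them in the reserve pool until it is phosphorylated. The mRNAs of all 5 are abundant in cortical neurons, and the level of an mRNA on ribosomes relative to its level in the cytosol is commonly used as a measure of how much of it is engaged in translation.

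Primary cortical neurons from embryonic day 18 Sprague-Dawley rats were treated at 27 days in vitro, for 24 h, with 100 nM of a preparation of synthetic rat amyloid-β (Aβ) peptide that included oligomers, or with HEPES vehicle. Cytosolic lysates were made at 28 days in vitro, after cycloheximide, which halts elongating ribosomes, had been present for the last 10 min. RNA was sequenced from the whole lysate (total) and after pelleting through a 20% sucrose cushion (ribosome-enriched), with poly(A) selection. This gave 4 groups of 3 libraries: vehicle ribosome (libraries 2, 6 and 10), vehicle total (4, 8 and 12), Aβ ribosome (1, 5 and 9) and Aβ total (3, 7 and 11). The paper describes the sequencing of the fractions as paired. The labels do not say which libraries form a pair, so the main fits treat the libraries as independent. All groups shared the rat strain, the culture age, the NMDA receptor blocker D,L-APV in the medium and the cycloheximide step. The cultures hold whatever cell types survive from embryonic cortex, and a cushion pellet does not separate mRNAs by how many ribosomes they carry. The study calls its sequenced samples biological replicates without saying whether the 3 libraries of a group were separate cultures, so the p-values measure the spread between these libraries.

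The deposited values are FPKM, fragment counts corrected for transcript length and for library depth, so that levels can be set side by side between genes. The 12 libraries held from 14089739 to 20036998 mapped fragments, as recovered from the FPKM values. The 20 most abundant genes took 19.5 to 28.7% of the fragments in the ribosome-enriched libraries and 8.87 to 9.61% in the total libraries. FPKM values were therefore also divided by a median-of-ratios factor for each library, and the result is called scaled FPKM below. Every library gave each of the 5 genes at least 2070 fragments (Stx1a in library 10), which sets a relative counting SD of at most 2.198%, smaller than the spread between libraries reported below. The bead capture step differed for 3 samples that the labels do not name.

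The 5 genes had the same order of mean abundance in both fractions, with different spacing. In the total libraries Vamp2 and Snap25 stood side by side, at 507 ± 31.0 and 514 ± 37.2 FPKM (SD, n = 6), ranking 87 and 84 among the 25424 genes. Syt1 followed at 320 ± 15.3 FPKM (rank 194), then Syn1 at 184 ± 10.99 FPKM (rank 407) and Stx1a at 115 ± 9.18 FPKM (rank 731). The ranges over the 6 total libraries did not overlap between any neighbours in this order except Vamp2 and Snap25. In the ribosome-enriched libraries Snap25 led, at 534 ± 101 FPKM (rank 133), above Vamp2 at 382 ± 39.4 FPKM (rank 186). Syt1 stood at 179 ± 50.3 FPKM (rank 442), followed by Syn1 and Stx1a, at 83.1 ± 11.2 FPKM (rank 1008) and 79.4 ± 15.0 FPKM (rank 1062). Here the ranges of Snap25 and Vamp2, of Syt1 and Syn1, and of Syn1 and Stx1a overlapped.

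**Figure D1:**
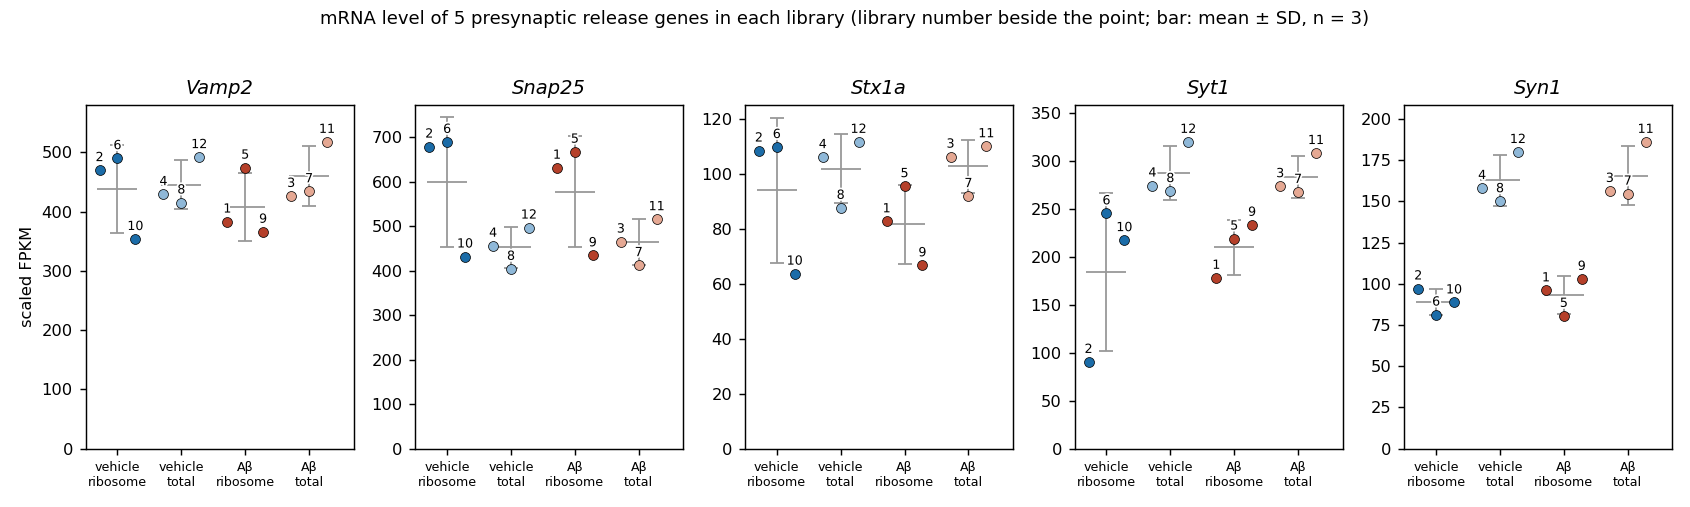
Scaled FPKM (linear axis from 0) of the 5 genes in each of the 12 libraries, in 1 panel per gene; a point is a library with its number, and the bar is the group mean ± SD (n = 3). Syn1 and Syt1 sat lower in every ribosome-enriched library than in any total library, Snap25 was highest in ribosome-enriched libraries 1, 2, 5 and 6, and Syt1 was lowest in library 2, at 90.4.

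The comparison of ribosome-enriched with total mRNA asks which transcripts are over- or under-represented on ribosomes relative to the cytosol, in vehicle-treated and in Aβ-treated neurons. Of the 5 genes, only Syn1 passed the threshold in vehicle-treated neurons, and Syn1 and Syt1 passed it in Aβ-treated neurons, in each case with less mRNA in the ribosome-enriched fraction. None of the 3 SNARE genes passed in either treatment. In scaled FPKM, Syn1 in the ribosome-enriched libraries was 55.0% of its total level in vehicle-treated neurons (95% interval 44.0 to 68.9%) and 56.4% in Aβ-treated neurons (45.7 to 69.6%). These percentages are relative to the other genes of a library and are not the share of Syn1 molecules on ribosomes. They depend on the scaling: as deposited, the log2 differences of Syn1 were larger, at -1.20 and -1.09. Over all 12150 genes tested with limma, 32.3% passed in vehicle-treated neurons (16.4% lower and 15.9% higher) and 41.1% in Aβ-treated neurons (21.5% lower and 19.6% higher), against 1 of 5 and 2 of 5 of the release genes. The median log2 difference of the 5 genes was -0.15 in vehicle-treated and -0.34 in Aβ-treated neurons, and that of all genes tested was 0.00 in both. The sign of the vehicle median rested on library 10, without which it was 0.11, and it was also above 0 with array weights (0.056). Without library 9 the Aβ median was -0.20. The scaling itself places the median of all genes near 0. On the FPKM as deposited, the medians in vehicle-treated and Aβ-treated neurons were -0.49 and -0.60 for the 5 genes. Those of all genes tested were -0.30 and -0.23.

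**Figure D2:**
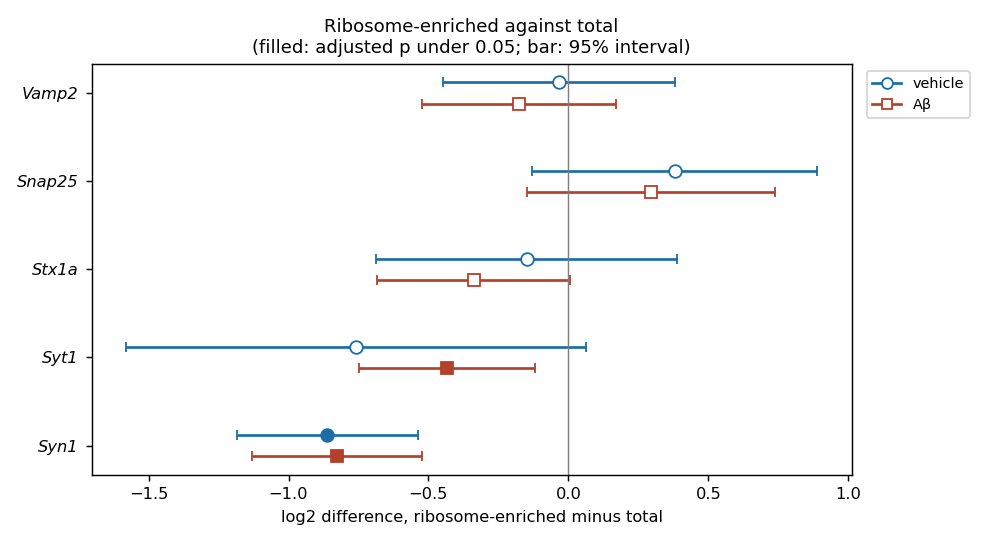
Fitted log2 difference between ribosome-enriched and total libraries for the 5 genes, with its 95% interval, in vehicle-treated (circles) and Aβ-treated (squares) neurons; filled symbols have an adjusted p under 0.05. Syn1 was at -0.86 and -0.83, with intervals well below 0, whereas the intervals of Vamp2, Snap25 and Stx1a all included 0.

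Vamp2, the vesicle SNARE, had FPKM values of 416, 405 and 337 in the vehicle ribosome libraries 2, 6 and 10. The vehicle total libraries 4, 8 and 12 gave 493, 481 and 528. After Aβ the ribosome-enriched libraries 1, 5 and 9 gave 376, 425 and 335, and the total libraries 3, 7 and 11 gave 486, 493 and 560.3. As deposited, every ribosome-enriched library was below every total library. After scaling the fractions overlapped, with vehicle means of 438 ± 73.6 in ribosome-enriched and 445 ± 40.7 in total libraries, and Aβ means of 408 ± 58.1 and 459 ± 50.5 (SD, n = 3). The log2 difference was -0.04 ± 0.18 in vehicle-treated neurons (SE; 95% interval -0.45 to 0.38, adjusted p = 0.894 with limma) and -0.18 ± 0.15 in Aβ-treated neurons (-0.52 to 0.17, adjusted p = 0.375). On the FPKM as deposited, the Aβ difference was -0.44 and passed the threshold (adjusted p = 0.0281 with limma). That choice of scale moved the median of all tested genes to -0.30 in vehicle-treated and -0.23 in Aβ-treated neurons.

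Snap25, the plasma membrane SNARE anchored through lipid tails, was the one gene of the 5 with a mean above its total level in the ribosome-enriched fraction. The vehicle ribosome libraries 2, 6 and 10 held 602, 570.2 and 412 FPKM, and the vehicle total libraries 4, 8 and 12 held 524, 469 and 534. The Aβ ribosome libraries 1, 5 and 9 held 620.2, 599 and 398 FPKM, and the Aβ total libraries 3, 7 and 11 held 531, 469 and 559. In both treatments, 2 ribosome-enriched libraries were above all total libraries and the remaining one (library 10 or 9) was below all of them as deposited. Scaled means were 600.4 ± 146 against 453 ± 46.5 in vehicle-treated neurons and 578 ± 125 against 465 ± 51.6 in Aβ-treated neurons (SD, n = 3). The log2 difference of 0.38 ± 0.22 (SE) in vehicle-treated neurons did not pass (95% interval -0.13 to 0.89, adjusted p = 0.213 with limma), nor did that of 0.30 ± 0.19 in Aβ-treated neurons (-0.15 to 0.74, adjusted p = 0.246). On the FPKM as deposited, the difference was only 0.036 in vehicle-treated (adjusted p = 0.884 with limma) and 0.030 in Aβ-treated neurons (adjusted p = 0.911). Its size thus depended on the scaling. Without library 10, the lowest of its group, the scaled vehicle difference was 0.60 (adjusted p = 0.0168 with limma). Without library 9, also the lowest of its group, the scaled Aβ difference was 0.49 (adjusted p = 0.0319 with limma). The call on Snap25 therefore rested on these libraries and on the scaling.

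Stx1a, which encodes syntaxin-1A, the plasma membrane SNARE that also binds calcium channels, was the least abundant of the 5 in total mRNA. Its FPKM values were 96.2, 90.8 and 60.9 in vehicle ribosome libraries 2, 6 and 10, and 122, 102 and 120.1 in vehicle total libraries 4, 8 and 12. In Aβ ribosome libraries 1, 5 and 9 they were 81.3, 85.8 and 61.2, and in Aβ total libraries 3, 7 and 11 they were 121, 105 and 119. All 6 ribosome-enriched values lay below all 6 total values as deposited, and the fractions overlapped after scaling, at 94.1 ± 26.3 against 102 ± 12.6 in vehicle-treated and 81.8 ± 14.5 against 103 ± 9.58 in Aβ-treated neurons (SD, n = 3). The log2 differences were -0.15 ± 0.23 (SE; 95% interval -0.69 to 0.39, adjusted p = 0.646 with limma) and -0.34 ± 0.15 (-0.68 to 0.01, adjusted p = 0.103). On the FPKM as deposited the Aβ difference was -0.60 and passed (adjusted p = 0.0124 with limma), as it did without Aβ ribosome library 5, at -0.46 (adjusted p = 0.0461 with limma). The vehicle difference turned positive, to 0.11, without library 10, as did that of Vamp2, also to 0.11.

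Syt1, the calcium sensor, was lower in the ribosome-enriched fraction in all 12 libraries, with a wide spread in vehicle-treated neurons. Vehicle ribosome libraries 2, 6 and 10 held 80.1, 203 and 207 FPKM, and vehicle total libraries 4, 8 and 12 held 315, 311 and 343. Aβ ribosome libraries 1, 5 and 9 held 175, 196 and 214 FPKM, and Aβ total libraries 3, 7 and 11 held 312, 304 and 334. The highest ribosome-enriched value was below the lowest total value both as deposited and after scaling, where the means were 184 ± 82.5 against 287 ± 28.1 in vehicle-treated and 210 ± 28.6 against 283 ± 21.9 in Aβ-treated neurons (SD, n = 3). Across all tested genes, 20.6% had their 6 ribosome-enriched libraries below their 6 total libraries in scaled FPKM and 19.1% had them above, against Syt1 and Syn1, 2 of the 5 release genes, below.

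In Aβ-treated neurons the log2 difference of Syt1 was -0.43 ± 0.13 (SE; 95% interval -0.75 to -0.12) and passed the threshold (adjusted p = 0.0355 with limma). The call was close to the threshold: it was lost, with the same direction, in 10 of 17 alternatives, among them leaving out any Aβ library but library 9 (adjusted p of 0.0569 without library 1 to 0.118 without library 11, with limma). In vehicle-treated neurons the difference was larger but less precise, at -0.76 ± 0.35 (95% interval -1.58 to 0.06, adjusted p = 0.135 with limma). Leaving out library 2 moved it to -0.31 (95% interval -0.64 to 0.02, adjusted p = 0.118 with limma). Library 2 gave 2139 fragments for Syt1, whose 95% counting interval corresponds to 76.7 to 83.5 FPKM, so counting error does not span the distance to the other libraries.

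Syn1, synapsin I, showed the most uniform difference. Vehicle ribosome libraries 2, 6 and 10 held 86.1, 67.2 and 84.6 FPKM, and vehicle total libraries 4, 8 and 12 held 182, 174 and 193. Aβ ribosome libraries 1, 5 and 9 held 94.2, 72.2 and 94.3 FPKM, and Aβ total libraries 3, 7 and 11 held 178, 176 and 201.5. No ribosome-enriched library came near a total library. Scaled means were 89.1 ± 7.91 against 163 ± 15.4 in vehicle-treated neurons and 93.2 ± 11.5 against 166 ± 17.7 in Aβ-treated neurons (SD, n = 3).

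The log2 difference of Syn1 was -0.86 ± 0.14 in vehicle-treated neurons (SE; 95% interval -1.19 to -0.54, adjusted p = 0.00501 with limma), a scaled level 1.82-fold lower in the ribosome-enriched fraction. In Aβ-treated neurons it was -0.83 ± 0.13 (95% interval -1.13 to -0.52, adjusted p = 0.00338 with limma), or 1.77-fold lower. These differences stood at percentiles 12.5 and 10.6 among all genes tested. The call on Syn1 held in all 17 alternatives tried in each treatment, with log2 differences from -1.20 to -0.79 in vehicle-treated and from -1.09 to -0.73 in Aβ-treated neurons.

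The ratio of 1 gene to another within a library does not depend on how libraries are scaled. Of the 10 pairs of release genes, 5 had ratios that did not overlap between the 6 ribosome-enriched and the 6 total libraries, and 4 of those 5 had Snap25 as the numerator. Over all pairs of the 11984 tested genes above 0 in every library, 38.1% did not overlap, so this count is not read as particular to the release genes. The Snap25 to Vamp2 ratio was 1.19 to 1.65 in ribosome-enriched and 0.951 to 1.09 in total libraries. The mRNAs of these partner SNAREs thus stood about level in total RNA, with Snap25 above Vamp2 in every ribosome-enriched library. The Snap25 to Stx1a ratio was 6.25 to 7.63 against 4.30 to 4.68, and the Snap25 to Syt1 ratio 1.86 to 7.52 against 1.51 to 1.70.

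Against Syn1, the Snap25 ratio was 4.22 to 8.48 in ribosome-enriched libraries and 2.67 to 2.98 in total libraries, and the Vamp2 ratio was 3.55 to 6.02 against 2.72 to 2.81. These were the 2 pairs in which a SNARE mRNA stood apart from synapsin mRNA in every library. The remaining 5 pairs overlapped, including Vamp2 with Stx1a (4.33 to 5.54 against 4.01 to 4.73) and Syt1 with Syn1 (0.930 to 3.01 against 1.66 to 1.79). The total libraries gave a narrow range for every pair, and the ribosome-enriched libraries a wider one. These ranges are descriptions, with no test.

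**Figure D3:**
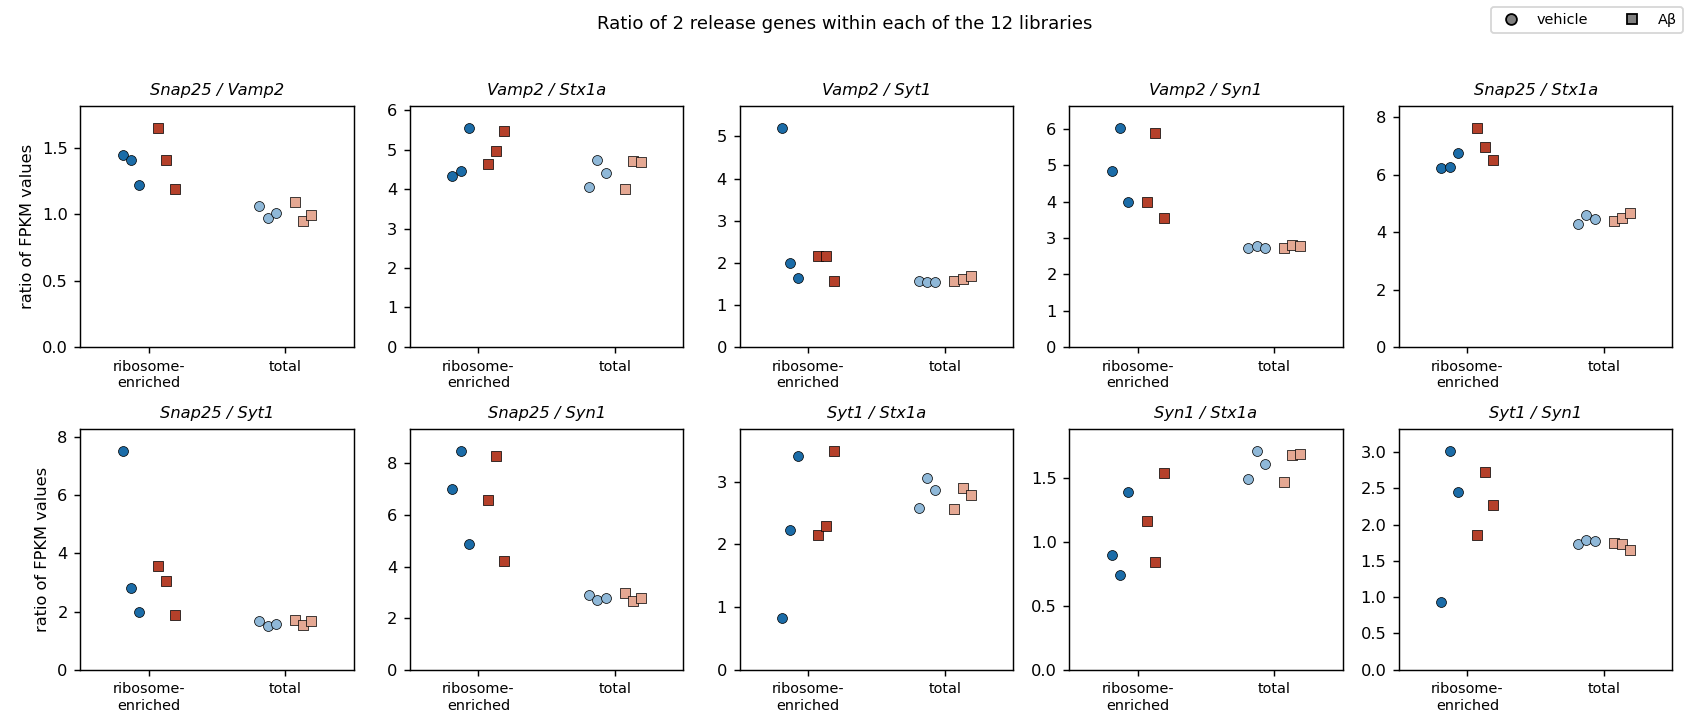
Ratio of the FPKM values of 2 release genes within each library (linear axes from 0), for the 10 pairs, in 6 ribosome-enriched and 6 total libraries (circles vehicle, squares Aβ). Snap25 relative to each of the other 4 genes, and Vamp2 relative to Syn1, were higher in every ribosome-enriched library than in any total library.

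The 3 SNARE genes stood lower in ribosome-enriched libraries 9 and 10 than in the other 4. Relative to the mean of the other ribosome-enriched libraries, Snap25 was at -0.49 in library 9 and -0.50 in library 10, Stx1a at -0.43 and -0.51, and Vamp2 at -0.23 and -0.29 on the log2 scale. For Snap25 these values fell at percentiles 3.901 and 4.79 of all tested genes in those libraries, and for Vamp2 at 19.4 and 16.8. Syt1 was above the mean of the other libraries in both, at 0.37 and 0.25, but that mean includes the low library 2 (90.4 scaled FPKM). Library 6 held more Syt1 (245) than library 9 (233) or library 10 (217). Without libraries 9 to 12, the consecutive sample numbers that include both, the ribosome-enriched minus total difference of Snap25 was 0.67 in vehicle-treated (adjusted p = 0.0314 with limma) and 0.57 in Aβ-treated neurons (adjusted p = 0.0374 with limma), a comparison chosen after seeing the data. The main fits do not pair fractions by runs of 4 consecutive sample numbers, because the labels do not say which libraries form a pair. Deviations from the group means did not correlate between fractions within such runs, which does not show that the fractions were unpaired. A fit that pairs fractions by these runs, the replicate block, is among the alternatives given below. Whether the bead capture differed in these libraries was not tested, because the labels do not say which 3 samples it concerned.

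**Figure D4:**
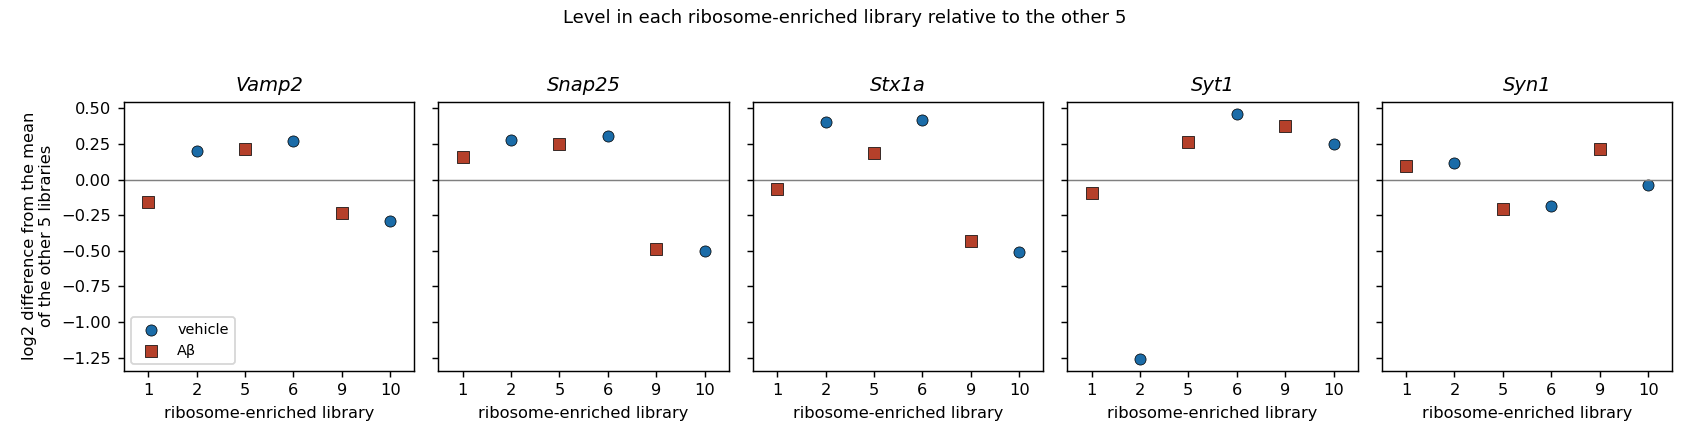
Log2 difference in scaled FPKM between each ribosome-enriched library (x axis, by library number) and the mean of the other 5 (y axis), for the 5 genes (circles vehicle, squares Aβ). Vamp2, Snap25 and Stx1a were lowest in libraries 9 and 10, and Syt1 was lowest in library 2, at -1.26.

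The comparison of Aβ with vehicle asks whether the peptide changed the level of these mRNAs on ribosomes or in the cytosol. No release gene passed the threshold in either fraction, and neither did any other of the 12150 genes (0% called in each; with limma, 178 genes in the ribosome-enriched and 20 in the total fraction had an unadjusted p under 0.05). In total mRNA the differences were close to 0: 0.04 for Vamp2 (95% interval -0.31 to 0.39), 0.04 for Snap25 (-0.43 to 0.50) and 0.02 for Stx1a (-0.44 to 0.47). Syt1 was at -0.02 (-0.66 to 0.62) and Syn1 at 0.03 (-0.26 to 0.31) on the log2 scale. The Aβ and vehicle libraries overlapped for all 5 genes. For Aβ against vehicle in bulk lysates, fewer cells that carry an mRNA and less of that mRNA per cell cannot be told apart.

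In the ribosome-enriched fraction the differences were -0.10 for Vamp2 (95% interval -0.45 to 0.25), -0.05 for Snap25 (-0.51 to 0.42) and -0.17 for Stx1a (-0.62 to 0.28) on the log2 scale. Syn1 was at 0.06 (-0.22 to 0.35). Syt1 had the largest difference of the 5, at 0.30 (-0.34 to 0.94), and its sign rested on 1 library: without vehicle ribosome library 2 it was -0.14 (-0.46 to 0.17). The adjusted p was 0.9997 for each gene with limma. Within each fraction, libraries of the same run of 4 consecutive sample numbers deviated together, and a fit with that run as a block gave narrower intervals. With the block the ribosome-enriched intervals were -0.33 to 0.13 for Vamp2, -0.25 to 0.15 for Snap25, -0.40 to 0.052 for Stx1a, -0.12 to 0.25 for Syn1 and -0.15 to 0.75 for Syt1. In total mRNA they were -0.19 to 0.27 for Vamp2, -0.16 to 0.24 for Snap25, -0.21 to 0.24 for Stx1a, -0.16 to 0.21 for Syn1 and -0.47 to 0.43 for Syt1. All 10 intervals included 0, and no gene was called with the block. The differences within runs had 1 sign for Snap25 in total mRNA (0.029 to 0.054) and for Syt1 in total mRNA (-0.053 to -0.0035), and mixed signs for the rest.

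Whether the step from total to ribosome-enriched mRNA differed between treatments was tested directly as an interaction. The differences (Aβ minus vehicle) were -0.14 for Vamp2 (95% interval -0.64 to 0.36), -0.08 for Snap25 (-0.74 to 0.57) and -0.19 for Stx1a (-0.83 to 0.45). For Syn1 the value was 0.04 (-0.37 to 0.44) and for Syt1 0.32 (-0.58 to 1.23). None passed, and 0% of the 12150 genes did (84 had an unadjusted p under 0.05 with limma). Thus the call on Syt1 in Aβ-treated neurons and its absence in vehicle-treated neurons were not shown to differ, and without library 2 the Syt1 value was -0.12 (95% interval -0.55 to 0.30).

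**Figure D5:**
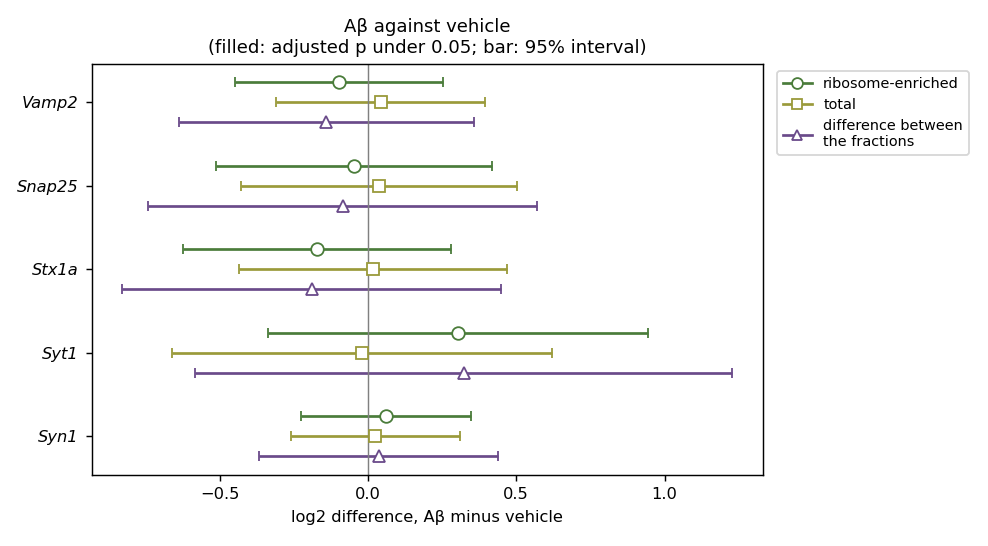
Fitted log2 difference between Aβ and vehicle for the 5 genes in ribosome-enriched (circles) and total (squares) libraries, and the difference between the fractions (triangles), each with its 95% interval; open symbols did not pass. All 15 intervals included 0, and the widest belonged to Syt1, from -0.58 to 1.23 for the difference between the fractions.

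The genes were also set side by side by the sequence upstream of their start sites, to show which letters they share. The set of promoter sequences used here (RefSeq, GRCr8) held an entry for 4 of the 5 genes, Vamp2, Stx1a, Syt1 and Syn1. The libraries measured mRNA and not binding, so a match is a description of the sequence only. The 250 bases before the start site held 66.0 to 69.6% G and C in these 4 genes, against a median of 51.2% over 33469 rat promoters. On both strands, the cAMP response element TGACGTCA was found upstream of Syn1 alone among the 4, and in 1.59% of all promoters. Its shorter form TGACG, which is part of the longer one, was found upstream of Vamp2 and Syn1 and in 18.2% of all promoters. The GC box GGGCGG was found upstream of Vamp2, Stx1a and Syt1 and in 30.5% of all promoters. The TATA box TATAAA was found upstream of none of the 4 and in 12.9% of all promoters. Shown here are the 250 bases upstream of Syn1 (chrX:3725495-3725744, plus strand, GRCr8), the gene with the clearest difference between fractions, with the cAMP response element in capitals, and the 30 bases around the shorter form upstream of Vamp2 (chr10:54292749-54292778, plus strand), in capitals:
Syn1: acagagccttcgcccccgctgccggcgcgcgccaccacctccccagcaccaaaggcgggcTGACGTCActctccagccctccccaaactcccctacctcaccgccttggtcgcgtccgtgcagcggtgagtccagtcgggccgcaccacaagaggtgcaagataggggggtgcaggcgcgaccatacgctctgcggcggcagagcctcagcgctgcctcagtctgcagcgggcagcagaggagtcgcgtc
Vamp2: ccggatgcgggTGACGtgcggccgccatct
The match began 190 bases before the Syn1 start site and 29 bases before the Vamp2 start site.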

How the data were processed

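The 12 libraries were aligned and counted by the authors with CASAVA 1.8, Bowtie2 2.2.3, TopHat2 2.0.12 and HTSeq 0.6.1 per the submitters' processing notes, and tested by them with DESeq. The genome build, annotation and strand setting are not given in the sources used here. The deposited table holds FPKM per gene, normalized by the authors to transcript length and mapped fragments. Of its 25425 rows, 1 incomplete row was left out. FPKM were divided by median-of-ratios factors (13985 genes above 0 in every library), a pseudocount of 1 was added and log2 taken, and the 12150 genes whose FPKM averaged 1 or more were fitted with limma 3.58.1 in R 4.3.3 (empirical Bayes with trend, Benjamini-Hochberg adjustment over all tested genes, threshold 0.05). Fold changes are on this scale. Fractions were compared within each treatment (6 libraries), and Aβ with vehicle, and the interaction, in one fit of 12 libraries. The study's own design pairs fractions, but the labels give no shared number. Whole fragments were recovered from the FPKM of 100% of tested genes (tolerance 0.003 fragments), which gave the depths. The fit code was also run on simulated independent libraries, without run effects and without median-of-ratios scaling. That simulation cannot show how the fit behaves with the run effects and scaling of these data. The text names the 5 genes of the set and no others. Of 131 listed presynaptic and cell type symbols, 0 could be matched to identifiers of the table, so markers of the culture's cell types and the other genes of the pathway were not checked, and no gene of similar pattern is named. Genes and lists were chosen with earlier results of these data known. Deviations from group means correlated at 0.406 to 0.699 between libraries of the same run and fraction (6 pairs) and at -0.196 to 0.0681 between fractions (12 pairs). The runs were therefore used as a block for treatments within a fraction. The low correlation between fractions does not show that they were unpaired, because spread specific to a fraction could hide a shared culture. With the run as a block, Aβ against vehicle still called 0 genes in each fraction.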

Additional observations from a re-analysis of the deposited data

Results flagged for a closer look

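Syt1 in vehicle ribosome library 2 stood apart from the other 5 ribosome-enriched libraries. Its gap to the nearest of them was 0.679 of the range over the 6 libraries on the log2 scale. It was the 1 such value among 10 sets of 6 libraries searched, where chance gives 0.5. Syt1 was at 80.1 FPKM there, against 175 to 214 FPKM in the others. In the same library Syt1 was 1.26 below the others' mean on the log2 scale, at percentile 3.21 of the tested genes, and 7.93% of those genes differed by more than 1 on that scale, against 1.004 to 2.35% in the other ribosome-enriched libraries.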

How the results depend on the processing

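Syn1 kept its call and direction in all 17 alternatives in each treatment. Syt1 in Aβ-treated neurons kept its direction and lost its call in 10 of 17 (adjusted p with limma from 0.0026 on the FPKM as deposited to 0.264 in one fit of 12 libraries). Causes were not tested, and the settings without libraries 9 to 12 and with voom weights were chosen after seeing the data. In vehicle-treated neurons 2 rather than 1 of the 5 genes were called on the FPKM as deposited, with array weights and without libraries 9 to 12, and 1 to 2 without single libraries; array weights called 8545 genes rather than 3925, and single omissions 1712 to 5253. In Aβ-treated neurons 4 rather than 2 of the 5 genes were called as deposited, 1 each with upper-quartile scaling, no filter, the replicate block or one fit of 12 libraries, and 1 to 3 without single libraries, which called 3025 to 5816 genes (4993 with all). As deposited, 918 of 4562 vehicle calls and 1138 of 5243 Aβ calls were higher, against 1932 of 3925 and 2385 of 4993 after scaling. The replicate block called 3356 vehicle and 4293 Aβ genes, and voom weights on the recovered fragments 4052 and 5221.

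Signs turned for small differences and for the larger ones of Syt1. The latter were 0.30 in the main fit for Aβ minus vehicle in the ribosome-enriched fraction and 0.32 for the interaction. In vehicle-treated neurons, ribosome-enriched minus total was 0.15 (Vamp2) and 0.056 (Stx1a) with array weights, 0.18 for both without libraries 9 to 12, and -0.12 to 0.11 (Vamp2) and -0.28 to 0.11 (Stx1a) without single libraries. Aβ minus vehicle in the ribosome-enriched fraction was 0.021 for Snap25 as deposited, -0.20 for Syt1 with array weights and -0.015 for Syn1 without libraries 9 to 12, and without single libraries -0.27 to 0.15 (Snap25), -0.14 to 0.57 (Syt1) and -0.014 to 0.16 (Syn1). In total mRNA it was -0.018 for Stx1a with array weights, and without single libraries -0.046 to 0.12 (Vamp2), -0.041 to 0.12 (Snap25), -0.087 to 0.094 (Stx1a), -0.083 to 0.058 (Syt1) and -0.061 to 0.099 (Syn1). The interaction was -0.19 for Syt1 with array weights and -0.029 for Syn1 without libraries 9 to 12, and without single libraries -0.31 to 0.11 (Snap25), -0.12 to 0.59 (Syt1) and -0.039 to 0.14 (Syn1). With no filter, 1 gene was called for Aβ in total mRNA and 1 for the interaction, and without single libraries 0 to 1 in each. Depth set a counting SD of at most 2.198% on any value of the 5 genes.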
